A study of Mus musculus with 46 samples.

Results

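The 10 genes described here carry glucose to lactate in murine cells. Slc2a1 encodes the glucose transporter GLUT1, Hk2 encodes hexokinase 2, Pfkl, Aldoa, Tpi1, Pgk1, Eno1 and Pkm encode glycolytic enzymes, Ldha encodes the A subunit of lactate dehydrogenase, and Slc16a3 encodes the lactate exporter MCT4. They were taken by gene symbol for their place in this pathway, with earlier results of these data known, and all 10 were found among the 9857 symbols that stand on 1 entry each in both the DMSO and the torin 1 count tables. All 10 passed the filter on low counts in every comparison.

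EPP2 cells, a murine pancreatic cancer line, were profiled by sequencing of ribosome footprints and of poly(A) RNA to ask how the loss of a tRNA wobble enzyme and the inhibition of mTOR act on translation. The series holds 46 libraries, of which 23 are footprint libraries and 23 are RNA-seq libraries. For its screen, the study used a single cell-derived clone with doxycycline-inducible Cas9. Its methods do not say that every culture profiled here came from that clone, so the values may describe 1 clone. In the Ctu1 iKO groups, guide RNAs against Ctu1 were expressed and Cas9 was induced with 300 ng/ml doxycycline for 4 days. In the control groups, the genotype is labelled as WT or control, and the guide RNAs that these libraries carried are not named. The study's methods list 2 kinds of control, guide RNAs against non-coding regions and cells that received no doxycycline, without saying which served here, so effects of doxycycline and Cas9 cannot be told apart from those of Ctu1 loss. Cells of either genotype received 300 nM torin 1, an ATP-competitive inhibitor of the mTOR kinase, or its solvent DMSO for 2 h. Footprints were counted in 6 control cultures with DMSO, 6 control cultures with torin 1, 5 Ctu1 iKO cultures with DMSO and 6 Ctu1 iKO cultures with torin 1. RNA-seq was used from replicates 1 to 3 of each group, which makes 12 libraries. The labels do not say that replicates are separate cultures, so p-values measure the spread between these samples, which may be technical in part. The study's methods describe fewer biologically independent replicates than the labels number, and its legends name independent experiments. If libraries were not independent, the p-values would be too small.

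Glycolysis breaks glucose down to pyruvate, and proliferating tumor cells reduce much of this pyruvate to lactate and export it even when oxygen is present. mTORC1 is known to raise the expression of glucose transport and glycolysis genes through the transcription factor HIF-1, which binds a short ACGTG or GCGTG core in many of their promoters. Ctu1 thiolates the wobble uridine of the tRNAs that read AAA, CAA and GAA codons, together called VAA codons, so the content of these codons is a property by which genes may be compared in Ctu1-deficient cells.

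Footprint counts summed to between 4602092 and 52907878 per library, and RNA-seq counts in replicates 1 to 3 to between 129881946 and 293648854. Levels are given as TMM-scaled counts per 1000000 counts of a library (CPM), which are shares of a library, so neither a change of total translation nor fewer cells as opposed to less RNA per cell can be told apart from them. Ctu1 transcripts measured 4.60 ± 0.32 CPM in Ctu1 iKO and 4.53 ± 0.10 CPM in control with DMSO (SD, n = 3), and Ctu1 footprints 1.76 ± 0.41 (n = 5) and 2.57 ± 0.71 (n = 6), with overlapping groups. The tables therefore did not separate the genotypes by Ctu1 itself, and frameshifts in its sequence were not visible in gene counts. The study reports editing of the Ctu1 locus by genomic PCR in Ctu1 iKO EPP2 cells. It also reports more ribosome occupancy at AAA codons in their footprints. Placed on the torin 1 and the genotype difference of the other genes, all footprint libraries and the RNA-seq libraries of replicates 1 to 3 lay on the side of their label, whereas 6 RNA-seq libraries of replicates 4 to 6 did not, and RNA-seq replicates 4 to 6 were left out of the comparisons, except where all replicates as labelled are named. Of the epithelial markers, Krt8, Krt18, Krt19 and Epcam were listed, and Krt7 and Cdh1 were not. Epcam transcripts lay at 0.954 to 1.16 CPM in control with DMSO. None of 4 acinar and 3 endothelial markers was listed, 4 of 5 fibroblast markers were, and of 3 leukocyte markers Cd68 was. The summed transcripts of the 3 epithelial markers shared by the tables moved with torin 1, from 259 to 278 CPM in control with DMSO to 342 to 388 CPM with torin 1, and from 293 to 360.3 CPM to 495 to 541 CPM in Ctu1 iKO, so they separated the genotypes in both treatments as well. Their footprints had lower ranges with torin 1, at 284 to 342 CPM and 222 to 310.2 CPM in control and at 312 to 406 CPM and 262 to 315 CPM in Ctu1 iKO, with overlap. Their part in the results below was not tested. The summed fibroblast markers overlapped between all groups.

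The promoters of Slc16a3, Hk2 and Ldha are shown because the results on lactate export, glucose phosphorylation and lactate formation turn on these genes, and because they hold the letters of the HIF core. Each is the 250 bases before an annotated start site (RefSeq, GRCm38.p6), read in the direction of the gene, with ACGTG on either strand in capitals (CACGT is ACGTG on the other strand, and CACGTG holds it on both). The Slc16a3 window is chr11:120948817-120949066 on the plus strand, the Hk2 window chr6:82774455-82774704 on the minus strand, and the Ldha window chr7:46845554-46845803 on the plus strand. Ldha has another annotated start site, at chr7:46847082, whose window holds 0 ACGTG matches. The window shown was taken because it has the most matches, 3.
Slc16a3: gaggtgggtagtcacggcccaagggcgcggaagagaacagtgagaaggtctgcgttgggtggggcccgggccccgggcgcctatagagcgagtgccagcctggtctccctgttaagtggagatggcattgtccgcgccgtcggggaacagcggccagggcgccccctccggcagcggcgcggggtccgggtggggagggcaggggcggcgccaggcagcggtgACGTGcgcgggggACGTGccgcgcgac
Hk2: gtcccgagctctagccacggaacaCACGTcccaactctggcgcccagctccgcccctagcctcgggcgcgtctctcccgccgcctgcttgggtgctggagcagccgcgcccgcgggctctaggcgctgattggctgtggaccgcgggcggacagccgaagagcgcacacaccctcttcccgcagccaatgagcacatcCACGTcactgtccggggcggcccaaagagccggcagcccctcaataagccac
Ldha: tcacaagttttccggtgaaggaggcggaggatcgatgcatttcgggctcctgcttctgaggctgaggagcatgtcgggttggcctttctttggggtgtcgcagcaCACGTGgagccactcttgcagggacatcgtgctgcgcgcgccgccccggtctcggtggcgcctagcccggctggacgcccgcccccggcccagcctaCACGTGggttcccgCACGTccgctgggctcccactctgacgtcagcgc
In the Slc16a3 window the ACGTG matches start 27 and 14 bases before the start site.

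All 10 genes had at least 1 promoter window in the table, 16 windows in all, out of 32851 windows of 27025 genes. ACGTG was found on either strand in at least 1 window of 7 of the 10 genes, and in at least 1 window of 18.5% of all genes. Counted by window, it was in 8 of the 16, beside 16.6% of all windows. The genes behind these shares were not limited to those counted in these cells. GCGTG was found in 4 of the 10 genes and in 30.9% of all genes. CACGTG, which contains ACGTG on both strands, was found in Ldha and in 6.86% of all genes. None of the 16 windows was followed by a start of C and 4 pyrimidines, the beginning of a TOP motif, which 2.51% of all windows had. These are matches of letters, and binding was not measured.

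The genes spanned a wide range of footprint density. Per kilobase of coding sequence, in control cells with DMSO, footprints of Ldha reached 6545 ± 842 CPM (SD, n = 6), above 99.8% of the 9683 genes with a coding length. Eno1 followed at 3275 ± 238, Aldoa at 3163 ± 333 and Pkm at 2864 ± 362 CPM per kilobase, whose ranges of SD overlap. Pgk1 (1125 ± 134) and Tpi1 (918 ± 101) formed the next pair, then Slc16a3 (247 ± 50.7) and Slc2a1 (156 ± 16.9). Pfkl (53.3 ± 7.16) and Hk2 (19.9 ± 3.26) were lowest, and Hk2 lay near the middle of all genes, above 52.4% of them. Enzymes of the later steps of the pathway were thus far more densely covered than the entry steps and the transporters. Transcripts per kilobase had nearly the same order, from Ldha at 3345 CPM to Hk2 at 9.34 CPM.

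**Figure D1:**
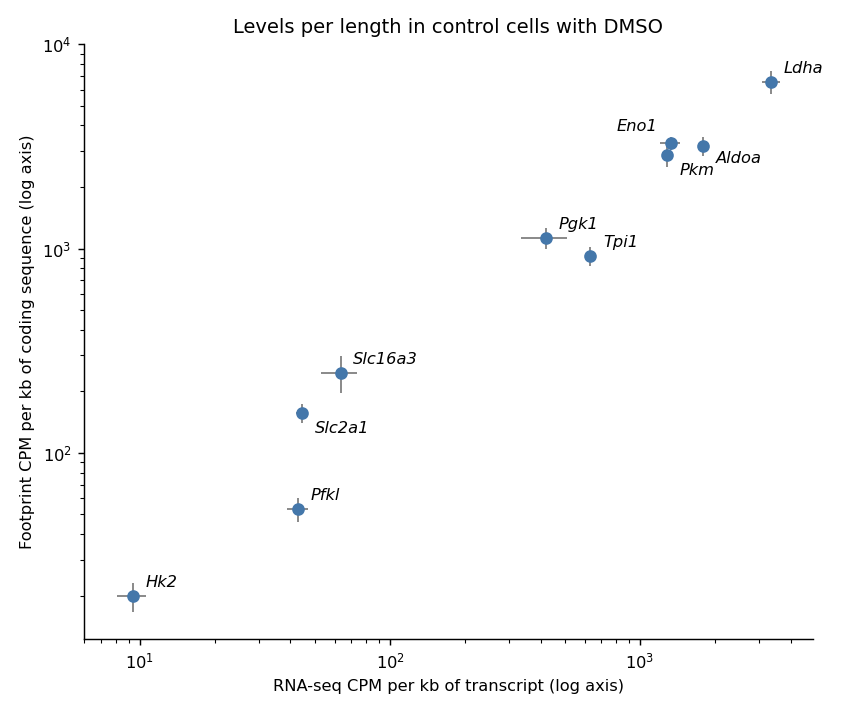
Footprint CPM per kilobase of coding sequence (vertical) against RNA-seq CPM per kilobase of transcript (horizontal) in control cells with DMSO, both on log axes, with a point per gene at the mean and bars for the SD over 6 footprint and 3 RNA-seq libraries. Ldha is highest and Hk2 lowest in both assays.

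Relative to the median gene, and with near-identical copies counted apart, the ratio of footprints to RNA-seq was highest for both membrane transporters, at a log2 ratio of 1.14 for Slc2a1 and 1.12 for Slc16a3. Pgk1 followed at 0.73, and Pfkl was lowest at -0.41, which is above 34.4% of 9486 genes. These ratios rest on the length of 1 annotated transcript per gene, 3260 bases for Slc2a1 and 4335 for Slc16a3. With a shorter transcript the ratio would be lower, and which transcripts the cells express was not tested. Footprint values of Eno1 and Aldoa are uncertain, because near-identical copies of them are listed as genes of their own. Eno1b, 99.4% identical to Eno1 over 1302 bases, had 2946 CPM of footprints and 0.24 CPM of RNA-seq in control with DMSO. Aldoart1, 94.2% identical to Aldoa, and Aldoart2, 91.9% identical, had 216 and 82.3 CPM of footprints and were at 0 in RNA-seq. When the counts of the copies were added to Eno1 and Aldoa, a setting chosen after seeing the data, no call of the 10 genes changed, but the log2 ratio of Eno1 went from 0.63 to 1.38, above both transporters, and its footprint level to 5538 ± 396 CPM per kilobase. Aldoa then had a ratio of 0.33 and a level of 3437 ± 344 CPM per kilobase. Ldha has 12, Pkm 6, Pgk1 4 and Tpi1 2 near-identical annotated copies, none of them listed, so their footprint levels, ratios and places in both orders are uncertain as well. No such copy was found for Slc2a1, Hk2, Pfkl and Slc16a3.

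The median VAA share of the 10 genes was 3.01% of codons, beside a median of 6.13% over 9624 genes. Tpi1 at 6.69% and Pgk1 at 6.95% were the 2 genes above the median of all genes. Slc16a3 had the lowest share, 0.85%, and only 0.7% of genes had less.

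Ctu1 iKO cells were compared with control cells first with DMSO, which shows the loss of Ctu1 while mTOR is active. The 10 genes took up 2.08% ± 0.13 of footprint counts in control (SD, n = 6) and 1.81% ± 0.13 in Ctu1 iKO (n = 5). In footprints, Slc16a3 fell to 0.531 times its control level, and none of the other 9 genes passed the test of edgeR, with log2 differences between -0.36 and -0.12. The median log2 difference of the 10 genes was -0.25, all 10 values were below 0, and the median of all genes was -4e-04. A lower call was made for 1 of the 10 genes, beside 1.04% of all genes tested (edgeR quasi-likelihood test, Benjamini-Hochberg, adjusted p under 0.05). In the RNA-seq libraries of the same comparison, 3 of the 10 genes fell, Slc16a3, Aldoa and Tpi1, beside 1.8% of all genes. There, too, all 10 log2 differences were below 0, and their median was -0.21, beside -0.0016 for all genes. The split of calls over all genes depended on scaling: with library totals alone it went from 169 higher and 108 lower to 218 and 80 in footprints, and from 336 and 182 to 263 and 210 in RNA-seq.

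With torin 1 present in both genotypes, which asks about Ctu1 while mTOR is inhibited, 4 of the 10 genes had fewer footprints in Ctu1 iKO cells, beside 2.6% of all genes called lower. These were Slc16a3, the glycolytic enzymes Aldoa and Tpi1, and Pgk1, which makes the first ATP of the pathway's payoff phase. The median of the 10 log2 differences was -0.34, with 9 of 10 below 0, and that of all genes was 0.01. The share of footprint counts was 2.02% ± 0.21 in control and 1.66% ± 0.11 in Ctu1 iKO (SD, n = 6 each). Same-numbered libraries deviated together in this comparison, and with the replicate number as a block 7 of the 10 genes were called lower, beside 7.35% of all genes called lower with the block: those 4, Ldha (adjusted p = 5.606e-04), Slc2a1 (adjusted p = 0.0213) and Eno1 (adjusted p = 0.0477, edgeR). In RNA-seq, none of the 10 genes passed the test without the block, beside 1.31% of all genes called in either direction. With the block 4 were called lower in RNA-seq, beside 15.5% of all genes called lower with it: Slc16a3, Tpi1, Ldha and Slc2a1. With library totals alone the split of calls over all genes went from 221 higher and 258 lower to 281 and 202 in footprints, and from 92 and 34 to 57 and 41 in RNA-seq. Both comparisons between genotypes use different libraries, and their values are given side by side below.

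**Figure D2:**
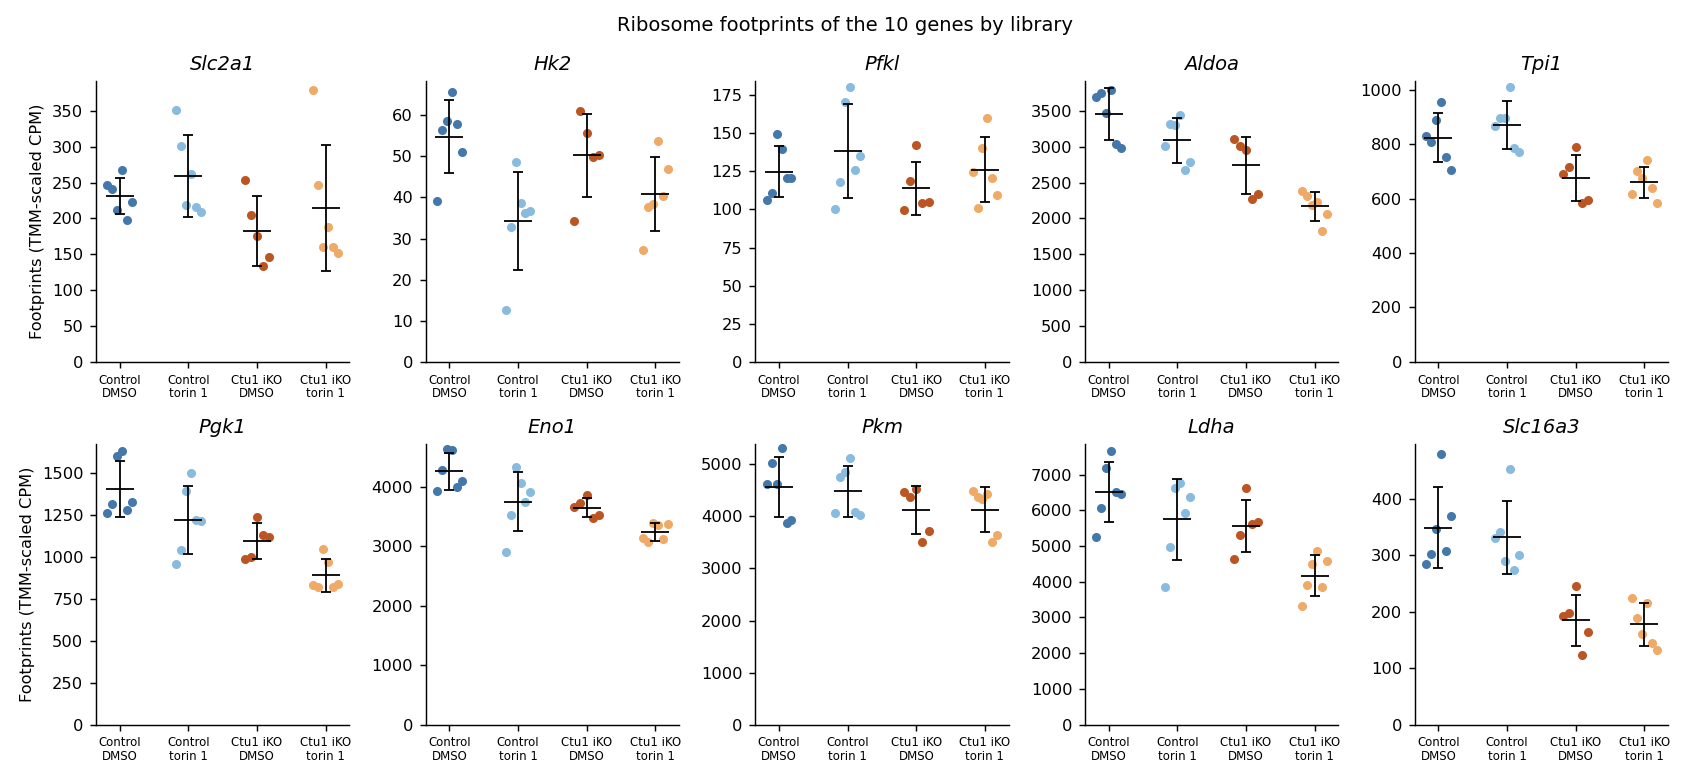
Footprint level of each of the 10 genes in every library (TMM-scaled CPM), grouped by genotype and treatment, with a point per library and a bar at the mean with the SD. For Slc16a3 every Ctu1 iKO library lies below every control library of the same treatment, and for Hk2 the control libraries with torin 1 lie mostly below those with DMSO.

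Of Slc2a1, Hk2 and Pfkl, the genes of glucose uptake and of both early phosphorylation steps, none was called between the genotypes by edgeR without the replicate block in all footprint libraries and RNA-seq replicates 1 to 3. Slc2a1 (chr4:119108711-119137983, plus strand, GENCODE M21 on GRCm38) had footprints of 198, 231 and 267 CPM in control with DMSO as the lowest, median and highest value, and 253, 205, 175, 133 and 147 CPM in Ctu1 iKO replicates 1 to 5. The groups overlapped through Ctu1 iKO replicates 1 and 2, while the other 3 replicates lay below all controls. Slc2a1 footprints differed by -0.34 ± 0.15 on the log2 scale (SE), which did not pass the test (adjusted p = 0.250, edgeR). Slc2a1 transcripts lay at 149, 152 and 136 CPM in control and 122, 124 and 90.9 CPM in Ctu1 iKO, without overlap between the groups. Their log2 difference was -0.37 (adjusted p = 0.109), and with the replicate block, in which RNA-seq libraries with the same number deviated together, it was -0.39 (adjusted p = 0.00493, edgeR). DESeq2 also called these Slc2a1 transcripts lower (adjusted p = 0.0344), as did edgeR with all RNA-seq replicates as labelled (adjusted p = 0.0114). The latter include Ctu1 iKO DMSO replicates 4 and 5, which lay on the torin 1 side of the torin 1 difference and on the Ctu1 iKO side of the genotype difference. In footprints with torin 1, Slc2a1 was called lower with replicates 3 to 6 only (-0.45, adjusted p = 0.0202).

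Hk2 (chr6:82725025-82774454, minus strand), which phosphorylates glucose and so keeps it in the cell, did not differ between the genotypes beyond the spread. Its footprints were 39.2, 57.2 and 65.7 CPM (lowest, median, highest) in control with DMSO and 34.3, 61.0, 55.6, 49.7 and 50.3 CPM in Ctu1 iKO. Between genotypes Hk2 differed by a log2 value of -0.12 (adjusted p = 0.729) with DMSO and 0.26 (adjusted p = 0.646) with torin 1. Pfkl (chr10:77986947-78010083, minus strand), the liver-type phosphofructokinase of the committed step, had 106 to 149.8 CPM of footprints in control with DMSO and 99.5 to 143 CPM in Ctu1 iKO, so the groups overlapped. Pfkl transcripts differed by a log2 value of -0.17 (adjusted p = 0.446), and by -0.18 with the replicate block (adjusted p = 0.0338, edgeR).

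Aldoa (chr7:126795234-126800751, minus strand) encodes the aldolase that cleaves fructose 1,6-bisphosphate. With torin 1, its footprints were 2675, 3163 and 3439 CPM (lowest, median, highest) in control and 1827, 2205 and 2384 CPM in Ctu1 iKO. Every Ctu1 iKO library lay below every control library. Aldoa thus differed by a log2 value of -0.51 ± 0.09 (SE; adjusted p = 0.00498, edgeR), 0.701 times the control level, and with replicates 1 to 3 only it did not pass (adjusted p = 0.279). With DMSO, Aldoa footprints were 2979, 3583 and 3792 CPM in control and 3113, 3018, 2961, 2272 and 2338 CPM in Ctu1 iKO. These groups overlapped, and the log2 difference of -0.33 did not pass the test (adjusted p = 0.110). Aldoa transcripts with DMSO were 2806, 2614 and 2708 CPM in control and 2191, 2154 and 2230.1 CPM in Ctu1 iKO, which left a gap between the groups. They fell by 0.31 on the log2 scale (SE 0.06, adjusted p = 0.0393, edgeR), a call that was lost when any 1 of 5 of the 6 libraries was left out (all but Ctu1 iKO replicate 3, adjusted p up to 0.147). With all RNA-seq replicates as labelled it was lost as well, and the difference was -0.17 (adjusted p = 0.0720).

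Tpi1 (chr6:124810586-124814296, minus strand) interconverts the triose phosphates that aldolase makes. Its footprints with torin 1 were 769, 881 and 1010.2 CPM (lowest, median, highest) in control and 582, 657 and 741 CPM in Ctu1 iKO. The groups did not overlap, with a log2 difference of -0.40 ± 0.09 (adjusted p = 0.0221, edgeR). The call was lost without control torin 1 replicate 4 (adjusted p = 0.0505), with replicates 3 to 6 only (adjusted p = 0.0542) and with replicates 1 to 3 only (adjusted p = 0.419). With DMSO, Tpi1 footprints were 704, 820.4 and 954 CPM in control and 692, 715, 789, 585 and 594 CPM in Ctu1 iKO, and the log2 difference of -0.28 did not pass (adjusted p = 0.149). Tpi1 transcripts with DMSO, 1037, 965 and 1047 CPM in control and 802, 777 and 863 CPM in Ctu1 iKO, were apart in all libraries and fell by 0.32 (adjusted p = 0.0473, edgeR). This call was also lost without any 1 of 5 libraries, all but Ctu1 iKO replicate 3, with an adjusted p of up to 0.149.

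Pgk1 (chrX:106187100-106203699, plus strand) encodes phosphoglycerate kinase 1. With DMSO its footprints were 1266, 1325 and 1635 CPM (lowest, median, highest) in control and 988, 998, 1243, 1132 and 1121 CPM in Ctu1 iKO. The groups did not overlap, but the log2 difference of -0.36 did not pass the test (adjusted p = 0.0627, edgeR). With torin 1 they were 960.3, 1218 and 1503 CPM in control and 821, 837 and 1052 CPM in Ctu1 iKO, and the difference of -0.46 ± 0.12 passed (adjusted p = 0.0365). That call was lost on leaving out any 1 of 8 of the 12 libraries (control replicates 3 to 6 and Ctu1 iKO replicates 1, 2, 5 and 6, adjusted p 0.0517 to 0.0862), with library totals alone (adjusted p = 0.0577) and with replicates 1 to 3 only (adjusted p = 0.679).

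Eno1 (chr4:150236721-150248879, plus strand), the enolase, had 3929.5, 4194 and 4643 CPM of footprints (lowest, median, highest) in control with DMSO and 3669.8, 3729, 3862, 3478 and 3529 CPM in Ctu1 iKO. All Ctu1 iKO libraries lay below all controls by a small margin. The log2 difference of -0.22 did not pass (adjusted p = 0.102, edgeR). Groups without overlap in this direction were seen for 3 of the 10 genes with DMSO (Pgk1, Eno1 and Slc16a3), beside 2.27% of all genes, and for 3 with torin 1 (Aldoa, Tpi1 and Slc16a3), beside 2.52% of all genes. Pkm (chr9:59656368-59679375, plus strand), the pyruvate kinase of the last step, overlapped between genotypes in both treatments. Its footprints ran from 3870.3 to 5307 CPM in control with DMSO and from 3517 to 4527 CPM in Ctu1 iKO.

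Ldha (chr7:46841475-46855627, plus strand) reduces pyruvate to lactate and regenerates the NAD+ that glycolysis needs. With DMSO, its footprints were 5261, 6480.2 and 7651 CPM (lowest, median, highest) in control and 4632, 5307, 6635, 5613 and 5667 CPM in Ctu1 iKO, and with torin 1 they were 3854, 6147 and 6779 CPM in control and 3329.6, 4197 and 4864 CPM in Ctu1 iKO. The groups overlapped in both treatments. The log2 difference was -0.22 with DMSO (adjusted p = 0.279) and -0.46 ± 0.14 with torin 1 (adjusted p = 0.0714, edgeR). The control replicate 1 with torin 1 was the lowest control library, and without it the adjusted p was 0.0120. Ldha was lower in Ctu1 iKO in 6 of 6 same-numbered pairs with torin 1, and with the replicate block its difference was -0.45, which passed (adjusted p = 5.606e-04).

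Slc16a3 (chr11:120948480-120960868, plus strand), which lets lactate leave the cell together with a proton, was the one gene of the 10 that edgeR without the replicate block called in footprints in both treatments. DESeq2 also called Pgk1 (adjusted p = 0.0127), Aldoa (adjusted p = 0.0478) and Eno1 (adjusted p = 0.0383) lower with DMSO. Its footprints with DMSO were 284, 327 and 479 CPM (lowest, median, highest) in control and 192, 198, 246, 124 and 164 CPM in Ctu1 iKO. With torin 1 they were 273, 316 and 453 CPM in control and 132, 174 and 225 CPM in Ctu1 iKO. The highest Ctu1 iKO library stayed below the lowest control library in either treatment. The log2 difference was -0.91 ± 0.17 (SE, 95% interval -1.27 to -0.55, adjusted p = 0.0128) with DMSO and -0.90 ± 0.15 (adjusted p = 0.00299) with torin 1 (edgeR), or 0.531 and 0.535 times control. Both calls held on leaving out each library in turn. With replicates 1 to 3 alone they were lost, at a log2 difference of -0.55 (adjusted p = 0.252) and -0.76 (adjusted p = 0.254).

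Slc16a3 transcripts were lower as well. With DMSO they were 235, 265 and 325 CPM in control and 158, 167 and 179.5 CPM in Ctu1 iKO, and with torin 1 187, 215 and 214 CPM in control and 139, 136 and 109 CPM in Ctu1 iKO. No Ctu1 iKO library reached a control library. The log2 difference was -0.71 ± 0.12 with DMSO (adjusted p = 0.0273) and -0.67 ± 0.12 with torin 1, which did not pass without the block (adjusted p = 0.0521) and passed with it (-0.68, adjusted p = 0.00147, edgeR). The call with DMSO was lost without control replicate 2 or without Ctu1 iKO replicate 1 or 2 (adjusted p 0.0931 to 0.109). In transcripts, the groups did not overlap in this direction for 5 of the 10 genes with DMSO (Slc2a1, Aldoa, Tpi1, Ldha and Slc16a3), beside 14.9% of all genes, and for 3 with torin 1, beside 13.8%. With the replicate block 7 of the 10 genes were called lower in transcripts with DMSO, beside 13.6% of all genes called lower with it: Slc16a3, Aldoa, Tpi1, Slc2a1, Ldha (adjusted p = 0.0189), Eno1 (adjusted p = 0.0335) and Pfkl.

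**Figure D3:**
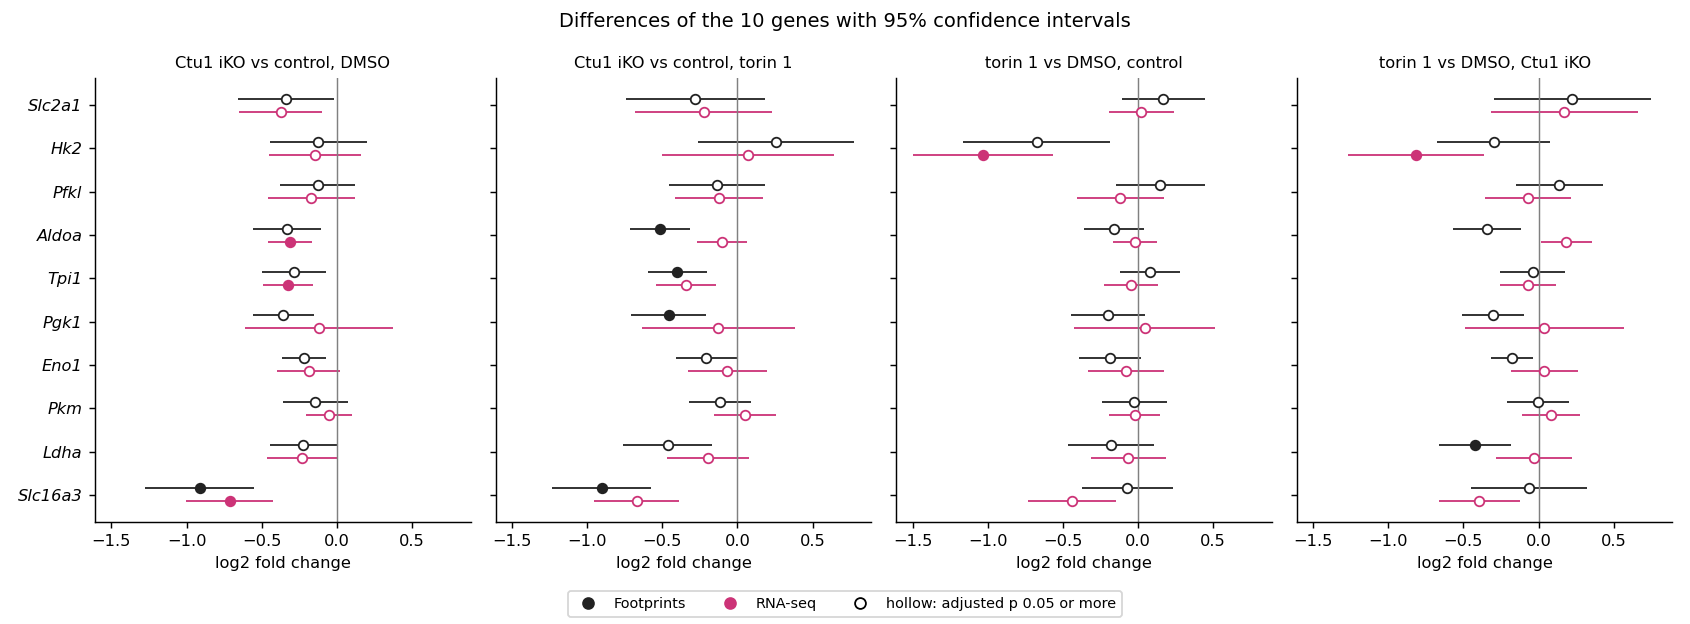
Log2 differences of the 10 genes with 95% confidence intervals in 4 comparisons, for footprints and RNA-seq, filled where the adjusted p from edgeR was under 0.05. Slc16a3 lies farthest to the left in both comparisons of Ctu1 iKO with control, and Hk2 in both comparisons of torin 1 with DMSO in RNA-seq.

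Torin 1 was compared with DMSO within each genotype, which shows the inhibition of mTOR for 2 h. In control cells, none of the 10 genes passed the test in footprints, beside 7.24% of all genes called in either direction. The median log2 difference of the 10 genes was -0.12, beside 0.015 for all genes, and 7 of 10 were below 0. Same-numbered libraries deviated together, and with the replicate block 5 genes were called lower, beside 10.6% of all genes called lower with it: Hk2, Aldoa (-0.16, adjusted p = 0.012), Pgk1 (-0.21, adjusted p = 0.0112), Eno1 (-0.19, adjusted p = 0.0168) and Ldha (-0.20, adjusted p = 0.0172, edgeR). In RNA-seq of control cells, Hk2 fell, beside 7.4% of all genes called lower. In Ctu1 iKO cells, Ldha fell in footprints, beside 4.52% of all genes called lower, and Hk2 fell in RNA-seq, also beside 4.52%. The medians of the 10 genes in Ctu1 iKO were -0.12 in footprints and 0.0039 in RNA-seq, beside 0.018 and 0.0033 for all genes. With library totals alone, 5 of 10 footprint differences in control were below 0, and the split of calls over all genes in Ctu1 iKO footprints turned from 343 higher and 445 lower to 580 and 317. In RNA-seq it went from 547 and 712 to 445 and 891 in control and from 359 and 435 to 289 and 650 in Ctu1 iKO. Comparisons that share a group of libraries, such as Ctu1 iKO with torin 1, are not independent of each other.

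Hk2 had the largest log2 difference with torin 1 among the transcripts of the 10 genes in both genotypes. Its transcripts measured 44.9, 51.3 and 58.3 CPM in control with DMSO and 17.7, 29.0 and 29.7 CPM with torin 1, and in Ctu1 iKO 42.5, 54.6 and 43.2 CPM with DMSO and 19.9, 33.2 and 26.6 CPM with torin 1. All torin 1 libraries lay below all DMSO libraries in both genotypes. In control the log2 difference was -1.03 ± 0.20 (adjusted p = 0.0174), 0.490 times the DMSO level, and in Ctu1 iKO it was -0.82 ± 0.19 (adjusted p = 0.0452, edgeR). The first call was lost without control DMSO or torin 1 replicate 2 (adjusted p 0.0634 and 0.0501), and the second without any 1 of the 6 libraries (adjusted p 0.0522 to 0.156). With the replicate block the differences were -1.06 (adjusted p = 1.955e-06) and -0.84 (adjusted p = 1.598e-04). The block raised the calls of all genes, in either direction, from 1259 to 4206 in control and from 794 to 3378 in Ctu1 iKO. With all RNA-seq replicates as labelled, the Hk2 call in Ctu1 iKO was lost (-0.55, adjusted p = 0.969).

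Hk2 footprints were 39.2, 57.2 and 65.7 CPM (lowest, median, highest) in control with DMSO and 12.7, 36.4 and 48.7 CPM with torin 1. The groups overlapped through the DMSO replicate 1, the lowest of its group, but torin 1 was lower in 6 of 6 same-numbered pairs. The log2 difference was -0.68 ± 0.23 (adjusted p = 0.0934) without the block and -0.74 with it (adjusted p = 0.00328, edgeR). Without control torin 1 replicate 1, which had the 12.7 CPM, it was -0.51 (adjusted p = 0.0369). In Ctu1 iKO, Hk2 footprints were 27.3, 39.4 and 53.8 CPM (lowest, median, highest) with torin 1, and the difference of -0.30 did not pass (adjusted p = 0.351).

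**Figure D4:**
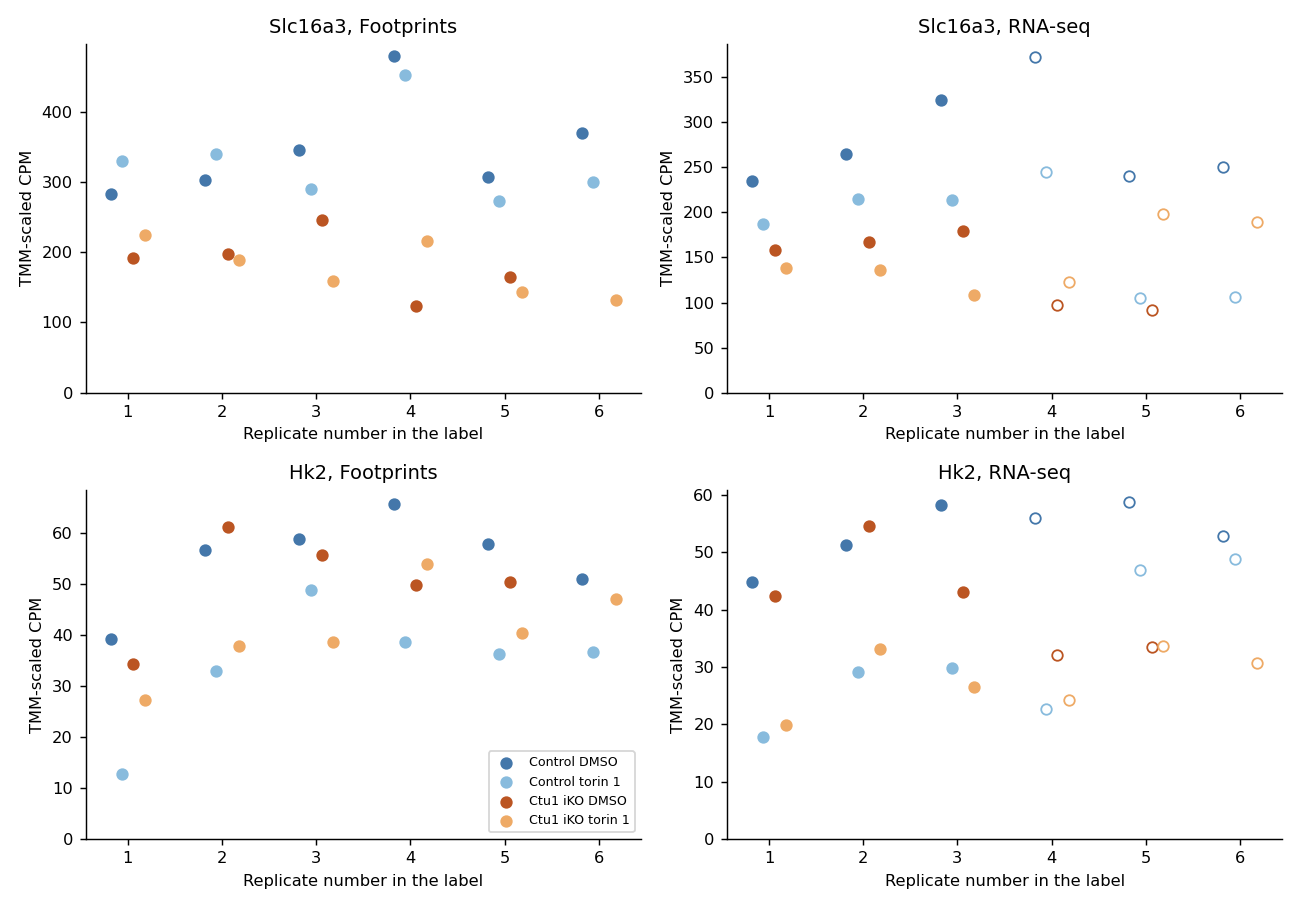
Slc16a3 and Hk2 by replicate number in footprints and RNA-seq (TMM-scaled CPM), with a color for each group. Filled points entered the comparisons and hollow points are RNA-seq replicates 4 to 6, which entered only the alternative with all replicates as labelled; in replicates 1 to 3 the Slc16a3 points of Ctu1 iKO lie below those of control, and the Hk2 transcripts with torin 1 below those with DMSO.

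Transcripts and footprints of Slc16a3 stood side by side as follows with torin 1 in control cells. Its transcripts, 235, 265 and 325 CPM with DMSO and 187, 215 and 214 CPM with torin 1, did not overlap, with a log2 difference of -0.44 ± 0.13 (adjusted p = 0.0625) and -0.43 with the replicate block (adjusted p = 1.262e-04, edgeR). In Ctu1 iKO the transcripts differed by -0.40 (adjusted p = 0.0836, with the block adjusted p = 0.0114). The footprints of Slc16a3 in control, 284 to 479 CPM with DMSO and 273 to 453 CPM with torin 1, overlapped almost fully, and the log2 difference of -0.07 changed sign when the library totals alone were used for scaling. Translational efficiency, the footprint change beyond the RNA-seq change, was 0.48 ± 0.18 for Slc16a3 in control (95% interval 0.08 to 0.88), and it did not pass the test (adjusted p = 0.557). In transcripts, groups without overlap were lower with torin 1 for 2 of the 10 genes in each genotype, Hk2 and Slc16a3, beside 16.2% of all genes in control and 16.4% in Ctu1 iKO.

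Ldha footprints in Ctu1 iKO were 4632, 5307, 6635, 5613 and 5667 CPM with DMSO, and 3329.6, 4197 and 4864 CPM (lowest, median, highest) with torin 1. The DMSO replicate 1 lay within the range of torin 1, so the groups overlapped, and the log2 difference was -0.42 ± 0.11 (adjusted p = 0.0295, edgeR), 0.746 times the DMSO level. The call was lost without any 1 of Ctu1 iKO DMSO replicates 3, 4 and 5 and torin 1 replicates 2 and 5 (adjusted p 0.0606 to 0.0846), with library totals alone (adjusted p = 0.0920) and with replicates 1 to 3 only (adjusted p = 0.217). Eno1 was the gene of the 10 whose groups did not overlap here in the lower direction, beside 4.69% of all genes. In control no gene of the 10 had groups without overlap in footprints, beside 3.43% of all genes.

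Aldoa was the gene of the 10 with a called change of translational efficiency. In Ctu1 iKO cells, torin 1 left Aldoa footprints in replicates 1 to 3 at 2384, 2320.1 and 2182 CPM, beside 3113, 3018 and 2961 CPM with DMSO. Its transcripts stood at 2478, 2587 and 2410.2 CPM, beside 2191, 2154 and 2230.1 CPM. Footprints were lower and transcripts higher with torin 1 in each replicate, and translational efficiency fell by 0.60 on the log2 scale (SE 0.11, adjusted p = 0.0129, edgeR), 0.659 times the DMSO value, beside 1.67% of all genes called lower. The call was lost without replicate 1 or without replicate 2 (adjusted p = 0.276 and 0.712), where fewer samples stood behind each group, and with library totals alone (-0.43, adjusted p = 0.0998). Over all genes, library totals moved the split of these calls from 9 higher and 161 lower to 29 and 124. The transcript difference was 0.19 and did not pass (adjusted p = 0.161), and with the replicate block it did (0.18, adjusted p = 0.0248). Groups of Aldoa transcripts did not overlap in this higher direction, beside 14.2% of all genes.

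In the other comparisons of translational efficiency none of the 10 genes passed with edgeR in replicates 1 to 3, beside 1.18% of all genes called in torin 1 against DMSO in control and 0.114% in Ctu1 iKO against control with torin 1. For Ctu1 iKO against control with DMSO no gene of 10117 was called by edgeR, 388 had an unadjusted p under 0.05, and DESeq2 called 21. Ldha differed in translational efficiency by -0.48 with torin 1 in Ctu1 iKO, which did not pass (adjusted p = 0.496, edgeR). With a term for each culture it was again -0.48 (adjusted p = 0.0529, edgeR). With all replicates as labelled it was -0.54 and passed (adjusted p = 0.0485, edgeR). In Ctu1 iKO against control with torin 1, DESeq2 called Aldoa lower in translational efficiency (adjusted p = 0.0433).

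Whether torin 1 acted differently in the genotypes was tested as an interaction. None of the 10 genes passed in footprints, where 0.639% of all genes were called, and the log2 differences of effects ran from -0.24 for Ldha to 0.38 for Hk2 (all adjusted p = 0.9998, edgeR). In transcripts no gene of 9616 was called by edgeR, 140 had an unadjusted p under 0.05, and DESeq2 called 3. In transcripts, Aldoa was the gene of the 10 whose 95% interval lay on one side of 0, with a difference of 0.22 (0.04 to 0.39, adjusted p = 0.9998). For Ldha, called lower with torin 1 in Ctu1 iKO and, with the replicate block, in control as well, the difference of effects did not pass the test.

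The rest of the pathway was followed in lists of 87 other genes of glycolysis, transport, pyruvate fate, the pentose phosphate path, glycogen and the hypoxia response, of which 65 were tested in footprints with torin 1 in control. Of these, 3 rose and 5 fell, beside 2.91% of all genes called higher and 4.33% called lower. With library totals alone in place of TMM, 5 rose and 5 fell, and the calls of all genes turned from 287 higher and 427 lower to 602 higher and 327 lower. With the replicate block 6 rose and 11 fell, beside 9.88% of all genes called higher and 10.6% lower. Ndrg1, a hypoxia-inducible gene, rose by 0.89 (adjusted p = 1.088e-04), Pdp1, the phosphatase that activates pyruvate dehydrogenase, by 0.88 and Bnip3l, a mitophagy receptor, by 0.43. Pfkfb3, which makes the activator of phosphofructokinase fructose 2,6-bisphosphate, fell by 1.52 (adjusted p = 0.0013), and in transcripts it fell by 1.55, a call lost with all RNA-seq replicates as labelled (-0.97, adjusted p = 0.0653). Ddit4, an inhibitor of mTORC1, fell by 1.09, Tigar, a fructose 2,6-bisphosphatase, by 1.01, Pdha1 of pyruvate dehydrogenase by 0.37 and Gpi1, glucose-6-phosphate isomerase, by 0.35 (adjusted p = 0.0143, edgeR). The Tigar call was lost without any 1 of control DMSO replicates 3 to 6 and torin 1 replicates 1, 3, 5 and 6 (adjusted p up to 0.0687), and that of Bnip3l without any 1 of control DMSO replicates 3, 4 and 6 (adjusted p up to 0.0525). Replicates 1 to 3 alone gave none of the footprint calls named here from the lists, and replicates 3 to 6 alone did not give those of Ddit4 (adjusted p = 0.0817) and Gpi1 (adjusted p = 0.0781) in control. Gpi1 stands between Hk2 and Pfkl in the pathway, and its footprints also fell with torin 1 in Ctu1 iKO, by 0.62. In translational efficiency Gpi1 fell with torin 1 in both genotypes, by 0.57 (adjusted p = 0.031) in control and 0.96 (adjusted p = 0.0051) in Ctu1 iKO, beside 1.12% and 1.67% of all genes called lower. The Gpi1 call in control was lost without replicate 1 (adjusted p = 0.599), without replicate 2 (adjusted p = 0.897) and with library totals alone (adjusted p = 0.125), and that in Ctu1 iKO without replicate 2 (adjusted p = 0.479). In footprints with torin 1 in control, the other enzymes of glycolysis had 3 of 14 tested genes lower and 0 higher, and the hypoxia list 2 of 19 higher and 1 lower.

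In footprints of Ctu1 iKO against control with DMSO, 66 of the 87 genes were tested, 2 rose and 2 fell, beside 1.63% of all genes called higher and 1.04% lower. Gapdh rose by 1.01 (adjusted p = 0.0102) and Eno3, an enolase typical of muscle, by 0.51. Carbonic anhydrase Car12 fell by 0.70 and transketolase, Tkt, by 0.33 (adjusted p = 0.047, edgeR). The Tkt call was lost without any 1 library other than Ctu1 iKO replicate 2 (adjusted p up to 0.120), and that of Eno3 without any 1 of control replicates 3 to 6 and Ctu1 iKO replicates 1 to 3 (adjusted p up to 0.0769). Replicates 3 to 6 alone gave neither call (adjusted p = 0.0504 and 0.0651), and library totals alone did not give that of Tkt (adjusted p = 0.0625). Gapdh footprints were 52.8 ± 15.3 CPM in control (SD, n = 6), although its transcripts were 5577 ± 1178 CPM (n = 3), and many processed copies of Gapdh exist in the mouse genome, so its footprint value is uncertain. Gapdh transcripts differed by 0.02 only. With torin 1, 1 gene of the lists rose, Ndrg1 by 0.56, beside 2.23% of all genes called higher. There, 3 genes fell, beside 2.6% called lower: Egln3, a HIF prolyl hydroxylase named after its values were seen, by 0.80, Gpi1 by 0.48 and Tkt by 0.49. The Egln3 call was lost without any 1 of control replicates 1, 2, 3, 5 and 6 and Ctu1 iKO replicates 2, 3, 5 and 6 (adjusted p up to 0.0723) and with replicates 3 to 6 only (adjusted p = 0.125), as was that of Ndrg1 with these replicates (adjusted p = 0.0544). With the replicate block 7 genes of the lists rose and 10 fell with torin 1, beside 7.02% of all genes called higher and 7.35% lower. Of the genes next to Slc16a3 in function, the lactate transporter Slc16a1 differed by -0.31 (adjusted p = 0.079) and Bsg, the chaperone of both transporters, by -0.08 (adjusted p = 0.719) in footprints with DMSO. Hif1a differed by 0.10 (adjusted p = 0.757) and Pgam1 by -0.01 (adjusted p = 0.970).

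Across the 23 footprint libraries, the genes outside these lists whose log2 CPM went most closely with the mean standardized level of the 10 genes were Ruvbl2 (Pearson r = 0.941), Aldoart1 (0.905), Tubb2a (0.887), Tubb2b (0.885) and Aldoart2 (0.875), out of 8786 genes. Aldoart1 and Aldoart2 are the near-identical copies of Aldoa named above. The libraries fall into 4 groups, so this is a description of shared patterns over groups and libraries.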

How the data were processed

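Ribosome footprints and poly(A) RNA were measured in EPP2 cells of 2 genotypes with DMSO or torin 1. Before the data were deposited, the authors trimmed footprint reads with cutadapt 3.4, handled molecular identifiers with UMI-tools 1.1.1, removed short fragments and rRNA reads, and aligned with STAR 2.5.3a. The labels' processing notes name mm10, whereas the study's methods name a human genome for footprints. The deposited symbols are of the mouse, and the build was not settled here. The deposited counts are whole-number counts per gene with no normalization. Whether reads with the same identifier were collapsed is not given in the sources used here. Every entry reached 100 footprint counts in some library, so genes with few footprints are not listed, and all RNA-seq counts were even.

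Groups and replicate numbers came from the labels. The study's methods mention 2 biological replicates done a day apart. Its legends give 5 or 6 independent footprint experiments and 2 for RNA-seq, so which libraries are independent is unsure. Symbols on 1 entry were used. A mean of 10 counts over the libraries of a comparison was required. The quasi-likelihood test of edgeR 4.0.16 (R 4.3.3) followed TMM normalization, p-values were adjusted by Benjamini-Hochberg, and 0.05 was the threshold of a call. Translational efficiency was the interaction of assay and group with TMM within each assay, for replicates 1 to 3. Footprint libraries had 4602092 to 52907878 counts, and the spread between replicates exceeded counting error in every pair of libraries of 1 group (variance at least 21.7 times counting in footprints and 39.8 times in RNA-seq). The RNA-seq pairs included replicates 4 to 6. As all RNA-seq counts were even, a fragment may count as 2, and the RNA-seq ratio would then be too high.

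The replicate number was taken as a pairing where every correlation of same-numbered deviations was over 0.1. This held for torin 1 against DMSO in control (0.417 to 0.627 in footprints), for Ctu1 iKO against control with torin 1 (0.289 to 0.535), and for all 4 transcript comparisons (at least 0.489). It did not hold for the other 2 footprint comparisons (lowest 0.036 and -0.039). Footprint and RNA-seq deviations of the same group and replicate number correlated at 0.16 to 0.462. The main test of translational efficiency had no term for the culture, which was the block among its alternatives.

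Alternatives were DESeq2 1.42.0, library totals, other count filters, halved RNA-seq counts, a replicate block, each library left out, replicates 1 to 3 or 3 to 6 only, all RNA-seq replicates as labelled, and summed copies of Eno1 and Aldoa in calls and levels (chosen after seeing the data). The 10 genes and the pathway lists were chosen with earlier results of these data known. Beside the 10 genes, the named genes were Ctu1, the list genes Gapdh, Gpi1, Pgam1, Slc16a1, Bsg and Hif1a, and up to 5 called list genes in each direction in 2 footprint comparisons (torin 1 in control and Ctu1 iKO with DMSO). The 5 genes outside the lists that correlated most with the 10 genes were also named. Egln3 was named outside this rule, after its values were seen. Gene models came from GENCODE M21 and promoters from RefSeq. Scripts were tested on simulated data.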

Additional observations from a re-analysis of the deposited data

Results flagged for a closer look

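The footprint level of Slc16a3 in control torin 1 replicate 4, 453 CPM, lay apart from the other 5 libraries of its group, which ran from 273 to 340.2 CPM. This gap was past the critical value for 6 samples in 1 of 40 groups of footprint libraries of the 10 genes, and chance flags about 1 in 20 groups. The same replicate number was also highest in control with DMSO (479 CPM), and the cause was not tested. Without this library the Slc16a3 call in Ctu1 iKO against control with torin 1 held.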

How the results depend on the processing

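Counts of calls moved with the tool, the replicate block and the libraries used. Halving the RNA-seq counts gave 1265 instead of 1259 called genes for torin 1 in control and 519 instead of 518 for Ctu1 iKO with DMSO, and footprint depth was not varied. The 12 called values of single genes kept their direction in all 194 recomputed values and lost the call in 49 of them. The 50 values of single genes were recomputed 818 times in all, and 4 of these recomputed values reversed, none of a called gene: Slc16a3 footprints with torin 1 in control went from -0.07 to 0.018 with library totals, to 0.049 with replicates 1 to 3 only and to 0.040 without control DMSO replicate 4 (range over left-out libraries -0.18 to 0.040), and Slc16a3 transcripts with torin 1 in Ctu1 iKO went to 0.10 with all replicates as labelled. Library totals moved the median of all genes from 0.015 to 0.104 and from 0.018 to 0.115 in the footprint comparisons of torin 1 with DMSO, and from 0.031 to 0.161 and from 0.030 to 0.197 in translational efficiency. Other count filters, halved RNA-seq counts and summed copies moved no count past 1.5 times.

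Counts of called genes follow, for torin 1 in control, torin 1 in Ctu1 iKO, Ctu1 iKO with DMSO and Ctu1 iKO with torin 1 in this order where all 4 are given. DESeq2 called 700 genes in footprints of Ctu1 iKO with DMSO and 842 with torin 1, 107 in the footprint interaction and 3 in the transcript interaction. In transcripts DESeq2 called 1963, 1609, 1530 and 1092 genes, and in translational efficiency 227, 314, 21 and 99. Of the 10 genes, DESeq2 called 1, 4 and 4 in the first 3 footprint comparisons, 2, 3 and 2 in transcripts with torin 1 in control, with torin 1 in Ctu1 iKO and in Ctu1 iKO with torin 1, and 1 in translational efficiency of Ctu1 iKO with torin 1.

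With the replicate block, 2019 genes were called in footprints of torin 1 in control, 1425 in Ctu1 iKO with torin 1, 139 in the interaction, 1 in translational efficiency of Ctu1 iKO with DMSO, and 4206, 3378, 2831 and 3162 in transcripts. Of the 10 genes the block called 5, 3, 3 and 7 in footprints and 2, 3, 7 and 4 in transcripts. In the 2 footprint comparisons whose numbers do not pair samples, the block added Aldoa and Pgk1 to Ldha and to Slc16a3, and there 2 and 3 of 5 libraries correlated best with their own number. The block changed no other call of the 10 genes.

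Replicates 1 to 3 alone gave 138, 178, 2 and 1 called genes in footprints and 2 in the interaction, with 0 of the 10 genes in the last 3 of the 4 comparisons. Replicates 3 to 6 gave 184 genes in Ctu1 iKO with DMSO, and 1 of the 10 genes for torin 1 in control. All RNA-seq replicates as labelled gave 0 transcript calls for torin 1 in Ctu1 iKO, 2677 for Ctu1 iKO with DMSO and 0 with torin 1, and in translational efficiency 258 for torin 1 in Ctu1 iKO, 5 for Ctu1 iKO with DMSO and 112 with torin 1. Of the 10 genes these replicates called 0 and 5 in the first 2 of these transcript comparisons, 2 for translational efficiency of torin 1 in Ctu1 iKO and 1 for that of Ctu1 iKO with torin 1. Library totals gave 1 and 3 genes in translational efficiency of Ctu1 iKO with DMSO and with torin 1. Of the 10 genes they called 0 in footprints of torin 1 in Ctu1 iKO, 2 in transcripts of torin 1 in control, 1 in transcripts of Ctu1 iKO with torin 1 and 0 in translational efficiency of torin 1 in Ctu1 iKO. The cause of these changes was not tested.

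Leaving out 1 library or replicate at a time gave 559 to 737, 527 to 921, 144 to 285 and 301 to 572 called genes in footprints, 31 to 53 in the footprint interaction, 412 to 1233, 123 to 1123, 0 to 511 and 1 to 406 in transcripts, 0 in the transcript interaction, and 0 to 131, 59 to 156, 0 and 0 to 2 in translational efficiency. Of the 10 genes it gave 0 to 1, 0 to 2, 1 and 2 to 5 in footprints, 0 to 1, 0, 0 to 3 and 0 to 1 in transcripts, and 0 to 1 in translational efficiency of torin 1 in Ctu1 iKO. The lowest counts came without control DMSO replicate 3 (144 genes) and without control torin 1 replicate 6 (301 genes) in footprints of Ctu1 iKO, and in transcripts without control DMSO replicate 2 (412 and 0 genes) or Ctu1 iKO DMSO replicate 1 (123 genes). In transcripts of Ctu1 iKO with torin 1, control replicate 3 or Ctu1 iKO replicate 2 left out gave 1 gene, and Ctu1 iKO replicate 3 left out gave 406.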

Other observations

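The RNA-seq libraries of replicates 4 to 6 entered only the alternative with all replicates as labelled. In them, Slc16a3 lay at 373, 241 and 250.5 CPM in the libraries labelled control with DMSO, and at 97.1 and 91.9 CPM in those labelled Ctu1 iKO with DMSO. In the libraries labelled torin 1, it lay at 245, 105 and 106 CPM for control and at 123, 199 and 189 CPM for Ctu1 iKO. Hk2 transcripts were 47.0 and 48.8 CPM in replicates 5 and 6 labelled control with torin 1. Both values lay within the ranges of control and of Ctu1 iKO libraries with DMSO. The same libraries, and replicates 5 and 6 labelled Ctu1 iKO with torin 1, lay off the side of their label in both the torin 1 and the genotype difference. Replicates 4 and 5 labelled Ctu1 iKO with DMSO did so in the torin 1 difference only.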
